A study of Gallus gallus with 7 samples.

Results

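The chicken karyotype pairs a few large chromosomes, the macrochromosomes, with many small ones, the microchromosomes. Those numbered 21 to 33 are among the smallest and are called the smallest microchromosomes here. Described here are all the segments of CpG methylation that the authors deposited for those chromosomes, taken by chromosome number with no filter on level, difference or p-value. The table held 7282 such segments, 13.7% of its 53008, on 11 chromosomes: 21 to 28, 30, 32 and 33. The table lists no segment on chromosomes 29 and 31. They were set against the 19870 segments of the macrochromosomes 1 to 5.

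The DNA came from microglia, macrophages that live in the brain, and the labels state that FACS isolated them from the anterior hypothalamus of 10-day-old chicks. Chicks of the conditioned group had spent 24 hours at 39 °C when they were 3 days old, and 3 libraries represent them, numbered 1-2, 3 and 4. Non-conditioned chicks gave 4 libraries, numbered 1 to 4, and no chick of either group had yet met lipopolysaccharide, the bacterial compound given later in the study. The labels describe hypothalamic cell pools of 10 to 12 chicks each, libraries made from 15 to 30 ng of DNA, and no strain, sex or genotype. What the number 1-2 stands for is not given, nor whether libraries of different numbers came from separate hatches. Methylation percentages carry no marker levels, so the cell type rests on the labels.

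Microchromosomes are known to be rich in genes, in G and C bases and in CpG islands, and to recombine more often per base than macrochromosomes. CpG islands in active promoters are usually unmethylated, while CpGs inside genes and repeats are usually methylated in vertebrates. Reduced representation bisulfite sequencing (RRBS) reads methylation only in CpG-rich restriction fragments, so a segment marks a place where such fragments were covered, and not every CpG of a chromosome. For each segment the deposited table gives 1 mean per group, in percent of methylated calls, and the number of cytosine positions in CpGs, counted on both strands. Values of single libraries on chromosomes 21 to 33 were not analysed here, so no difference on them carries a replicate error, and none was tested between libraries. Read depth is unknown. The exact binomial (Clopper-Pearson) 95% intervals below cover counting error only, with neighbouring segments counted as if they were independent.

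Segments were packed about 5 times more densely on the smallest microchromosomes than on the macrochromosomes. Chromosomes 21 to 33 held 167 segments per Mb of span, against 32.7 per Mb on chromosomes 1 to 5, a ratio of 5.09, where the span runs from the first to the last segment of a chromosome. In CpG positions the densities were 2077 and 416 per Mb. Segments covered 13.8 bp of each kb of span on chromosomes 21 to 33 and 2.18 bp of each kb on chromosomes 1 to 5.

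Density differed widely among the small chromosomes themselves. Chromosome 22 had the lowest value, with 68.3 segments per Mb, followed by chromosome 24 with 97.4 and chromosome 21 with 116. Chromosomes 26, 23 and 25 had 179, 182 and 199 segments per Mb. Chromosomes 27, 28 and 33 had 220, 259 and 265 segments per Mb. Every one of these exceeded chromosome 5, the densest of the 5 macrochromosomes at 53.6 per Mb, whereas chromosome 1 had 26.7. Chromosomes 30 and 32 stood at 1097 and 856 segments per Mb, but these rest on 20 and 62 segments within spans of 0.0182 and 0.0724 Mb. The ratio was 5.05 without those 2.

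**Figure D1:**
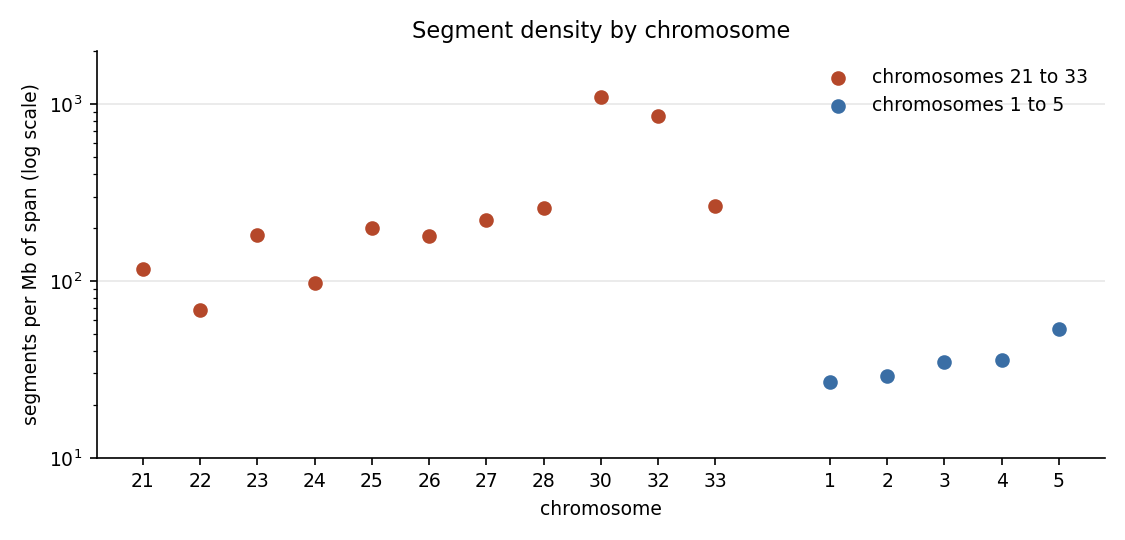
Segments per Mb of span (log scale) for each chromosome from 21 to 33 that has segments, and for chromosomes 1 to 5. Values run from 68.3 (chromosome 22) to 1097 (chromosome 30) on the small chromosomes and from 26.7 to 53.6 on the large ones; a point is 1 chromosome and has no error.

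Part of the contrast came from large stretches with no segment at all on the macrochromosomes. Of 100-kb windows within the span, 88.1% held a segment on chromosomes 21 to 33 (392 of 445), against 48.1% on chromosomes 1 to 5 (2928 of 6082). Counted per occupied window, the ratio of segment numbers was 2.74. Gaps of over 100 kb to the next segment followed 0.756% of segments on chromosomes 21 to 33 (55 gaps) and 8.03% on chromosomes 1 to 5 (1595 gaps). The longest gap on the small chromosomes, 943 kb, lay on chromosome 22, the least dense of them. At short range the order turned: the next segment lay within 200 bp for 47.3% of segments on chromosomes 21 to 33 and for 54.7% on chromosomes 1 to 5, and the median gaps were 248 and 139 bp. Segments thus stood in tight clusters on the macrochromosomes, and were spread more evenly on the small chromosomes.

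The window with most segments on the small chromosomes was chromosome 27, 4800001 to 4900000, in the authors' build galGal5. It held 89 segments with 1164 positions, of which 33 segments lay under 10% methylation and none over 80%. Its mean was 22.0% in conditioned and 25.2% in non-conditioned microglia, and 67 of the 89 segments were lower in conditioned microglia. Among the windows with at least 5 segments, mean levels ran from 2.69% to 55.1% on chromosomes 21 to 33 (314 windows, median 16.7%). On chromosomes 1 to 5 the median was 5.29% (1519 windows), and 78.4% of windows lay under 10%, against 27.4% on chromosomes 21 to 33.

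Single segments were somewhat longer and held CpG positions less tightly on the small chromosomes. The median length was 56 bp on chromosomes 21 to 33 and 48 bp on chromosomes 1 to 5, with 15.1 and 19.04 positions per 100 bp of segment. The median number of positions was 11 on chromosomes 1 to 5, and 10 on chromosomes 21 to 33, the smallest number in the table. Spacing went with level: on chromosomes 21 to 33, segments under 2% had 25.9 positions per 100 bp and those at 50% to 80% had 9.91. Weighted to the mix of levels on chromosomes 1 to 5, the mean over segments on chromosomes 21 to 33 was 26.9 positions per 100 bp, against 27.6 on chromosomes 1 to 5 and 24.0 before weighting. At matched levels the spacing of positions was thus closer between the sets than over all segments.

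Methylation in segments was higher on the smallest microchromosomes in both groups, 2.17 times in conditioned and 1.90 times in non-conditioned microglia. In conditioned microglia the mean over segments was 18.3% on chromosomes 21 to 33 and 8.41% on chromosomes 1 to 5. In non-conditioned microglia the means were 19.8% and 10.4%. In points, the excess of the small chromosomes was similar in both groups, 9.87 in conditioned and 9.36 in non-conditioned microglia. The median segment had 5.76% in conditioned and 8.75% in non-conditioned microglia on chromosomes 21 to 33, and 2.68% and 5.005% on chromosomes 1 to 5. The lower quartile was 2.15% in conditioned and 4.08% in non-conditioned microglia on chromosomes 21 to 33, and 1.54% and 3.10% on chromosomes 1 to 5. Most segments were weakly methylated in both sets, and quartiles, medians and means alike were higher on the small chromosomes.

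Intermediate levels were 2.11 times more frequent among the segments of the small chromosomes. By the mean of both groups, 40.1% of the segments of chromosomes 21 to 33 lay between 10% and 80% (2917 segments, interval 38.9% to 41.2%), against 19.01% on chromosomes 1 to 5. Under 10% lay 57.3% and 79.8%. Over 80% lay 2.69% (196 segments, interval 2.33% to 3.09%) and 1.21%. The largest excess was at levels of 20% to 80%: 16.5% of segments of chromosomes 21 to 33 stood at 20% to 50% and 11.0% at 50% to 80%, against 5.44% and 3.37% on chromosomes 1 to 5.

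All 9 small chromosomes with spans over 1 Mb had a larger share of intermediate segments than any macrochromosome. Chromosome 21 had the smallest share of the 9, with 29.7%, and at 4.23% also the largest share of segments over 80%. Chromosomes 24, 22 and 26 had 35.1%, 37.7% and 39.5% at intermediate levels. Chromosomes 33, 23, 25, 27 and 28 had 40.3%, 41.6%, 43.3%, 43.7% and 43.9%. The macrochromosomes ran from 16.8% on chromosome 3 to 21.9% on chromosome 5. Chromosome 25 had the highest means of the 11, with 21.2% in conditioned and 22.1% in non-conditioned microglia. Over these 9 small chromosomes, the Spearman correlation of density with the intermediate share was 0.767. Over the 28 numbered chromosomes other than 16, 30 and 32, span and mean level had a Spearman correlation of -0.961. These correlations are descriptions, since the chromosomes share the same 7 libraries.

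**Figure D2:**
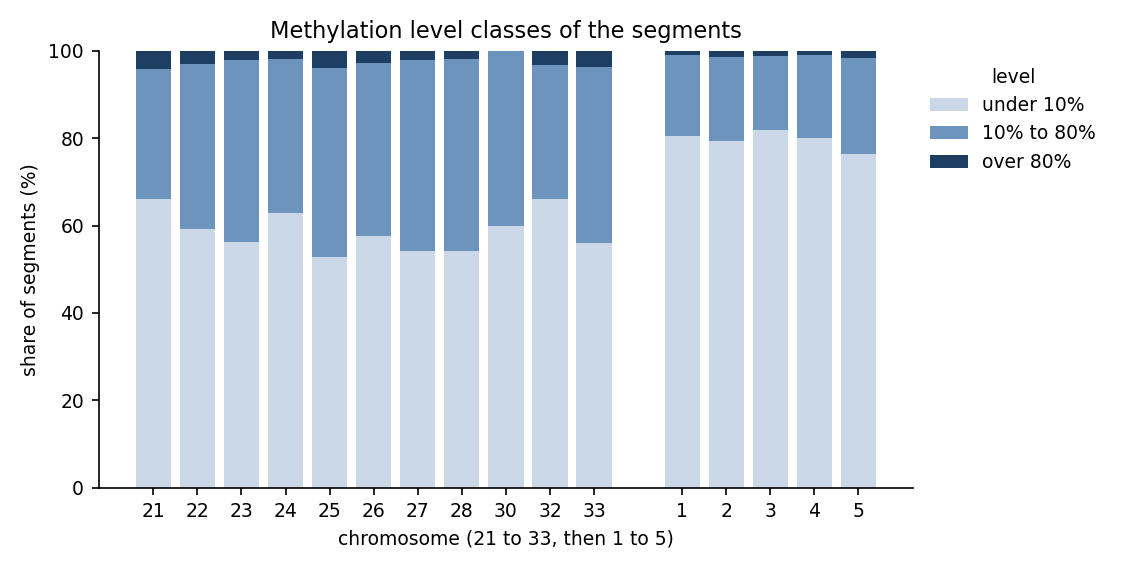
Share of segments (%) under 10%, at 10% to 80% and over 80% methylation (mean of both groups) on each chromosome from 21 to 33 with segments, and on chromosomes 1 to 5. The middle class takes 29.7% to 43.9% of segments on the small chromosomes and 16.8% to 21.9% on the large ones.

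Outer and inner parts differed in level on the macrochromosomes and hardly on the small ones. The parts were cut by share of the span, so their lengths in bp were unlike. Spans ran from 1.64 to 6.73 Mb on the 9 small chromosomes and from 59.7 to 196 Mb on chromosomes 1 to 5. Ends of equal length in bp were not compared. In the outer parts of the 9 small chromosomes, 10% of the span at each end, the mean level was 19.4%, against 18.9% in the inner part. On chromosomes 1 to 5 it was 14.7% in the outer parts and 7.89% in the inner part. The ends of the macrochromosomes thus stood nearer to the small chromosomes than their interiors did. Segments with next neighbours within 200 bp had a Spearman correlation of level of 0.559 on chromosomes 21 to 33 (3441 pairs) and 0.289 on chromosomes 1 to 5 (10868 pairs). Beyond 10 kb the values were 0.125 and 0.0935. By other measures, neighbours within 200 bp were not more alike on the small chromosomes. They fell in the same level class in 82.8% of pairs on chromosomes 21 to 33 and in 85.5% on chromosomes 1 to 5. Their median differences in level were 2.74 and 2.01 points. Neighbours come from the same libraries, and nearby ones can share reads.

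Of the segments over 80% in both groups, the 3 with most positions are given with their neighbours. On chromosome 28, 2688513 to 2688758, 28 positions had 83.2% in conditioned and 83.4% in non-conditioned microglia. The segment 113 bp before it had 41.4% and 20.2%, and the one 1.37 kb after it had 5.31% and 2.31%, so the level changed within a short distance. On chromosome 24, 4072692 to 4072793, 23 positions had 83.0% and 86.9%, and the nearest segment, 22.2 kb before, had 61.5% and 74.3%. On chromosome 21, 1245684 to 1245824, 20 positions had 92.3% and 89.2%. Its nearest segments, 15.2 kb before and 13.9 kb after, had 4.38% and 1.58% in conditioned and 10.7% and 2.98% in non-conditioned microglia.

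The segments with most positions stood at very different levels. On chromosome 23, 3766112 to 3766356, 71 positions had 5.17% in conditioned and 4.82% in non-conditioned microglia. On chromosome 28, 2795060 to 2795322, 71 positions had 58.4% and 53.5%. On chromosome 27, 4837333 to 4837498, 61 positions had 22.8% and 18.6%, and on chromosome 26, 1320774 to 1320946, 56 positions had 37.7% and 29.6%. Of these stretches, that on chromosome 23 was weakly methylated and the others were partly methylated, in both groups. Gene models of galGal5 were not used here, so neither genes nor exons, introns or promoters are assigned.

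Conditioned microglia had the lower mean in most segments of the small chromosomes. The median difference, conditioned minus non-conditioned, was -1.91 percentage points, against -1.90 points on chromosomes 1 to 5 and -1.88 points over the whole table. These medians belong to the authors' segments and not to CpGs at large. On chromosomes 10 to 13, which have library values, runs of 10 successive positions laid out without regard to the groups had a median of -0.982 points (20786 runs), against -1.82 points for the 5882 segments there. On chromosome 1 the medians were -1.11 points for runs and -1.95 points for segments. On chromosomes 21 to 33, conditioned microglia had the lower mean in 71.7% of segments (5220 of 7282, interval 70.6% to 72.7%), against 81.4% on chromosomes 1 to 5 and 77.6% of the whole table. Over the 9 small chromosomes with spans over 1 Mb, the share ran from 65.7% on chromosome 25 to 78.1% on chromosome 21, below the 79.3% of chromosome 5, the lowest of the macrochromosomes. Chromosomes 28 and 25 had the mean differences nearest to 0 of these 9, at -0.889 and -0.886 points, and chromosome 27 the farthest, at -2.14 points. On chromosomes 30 and 32 the conditioned mean was the higher one, with 18.5% against 17.6% and 19.3% against 18.5%, over 20 and 62 segments. Of the segments there, 60.0% (interval 36.1% to 80.9%) and 66.1% (53.0% to 77.7%) were lower in conditioned microglia. The interval of chromosome 30 includes 50%. Their median differences were -1.55 and -1.31 points.

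The lower share of losses went with the mix of levels. Under 10%, 85.6% of the segments of chromosomes 21 to 33 and 86.6% of those of chromosomes 1 to 5 were lower in conditioned microglia. At 20% to 50% the shares were 40.1% (interval 37.3% to 42.9%) and 41.5% (38.6% to 44.5%), so that most segments there were higher in conditioned microglia in both sets. Weighted to the levels of chromosomes 1 to 5, the share lower on chromosomes 21 to 33 was 79.9%, compared with 81.4% on chromosomes 1 to 5. A gap remained at 10% to 20%, where 66.2% (63.02% to 69.3%) were lower on chromosomes 21 to 33 and 73.5% (71.5% to 75.4%) on chromosomes 1 to 5. At 50% to 80% the medians were -3.71 and -0.835 points, with shares lower of 55.1% (51.6% to 58.6%) and 51.1% (47.3% to 55.0%). The mean differences at that level were smaller, -1.59 and -0.413 points.

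By the sign of the median, the pattern by level recurred on most of the small chromosomes. At 5% to 10% the median difference was below 0 on 9 of the 9 with spans over 1 Mb, between -4.02 and -2.96 points. At 20% to 50% it was above 0 on 7 of them and below 0 on chromosomes 21 and 22, which had -2.15 and -2.36 points over 79 and 43 segments. At 50% to 80% it was below 0 on 6 and above 0 on chromosomes 22, 25 and 28. From 20% to 80% these signs can rest on few segments. At 20% to 50%, chromosome 21 had 42 segments lower and 37 higher, and chromosome 22 had 23 and 20. Chromosome 27 had a median of 2.02 points there, but the lower mean in conditioned microglia (32.6% against 33.7%). At 50% to 80%, chromosome 28 likewise had a median of 1.25 points and means of 64.2% and 64.4%. The small chromosomes were read in the same libraries and are not replicates of a condition.

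**Figure D3:**
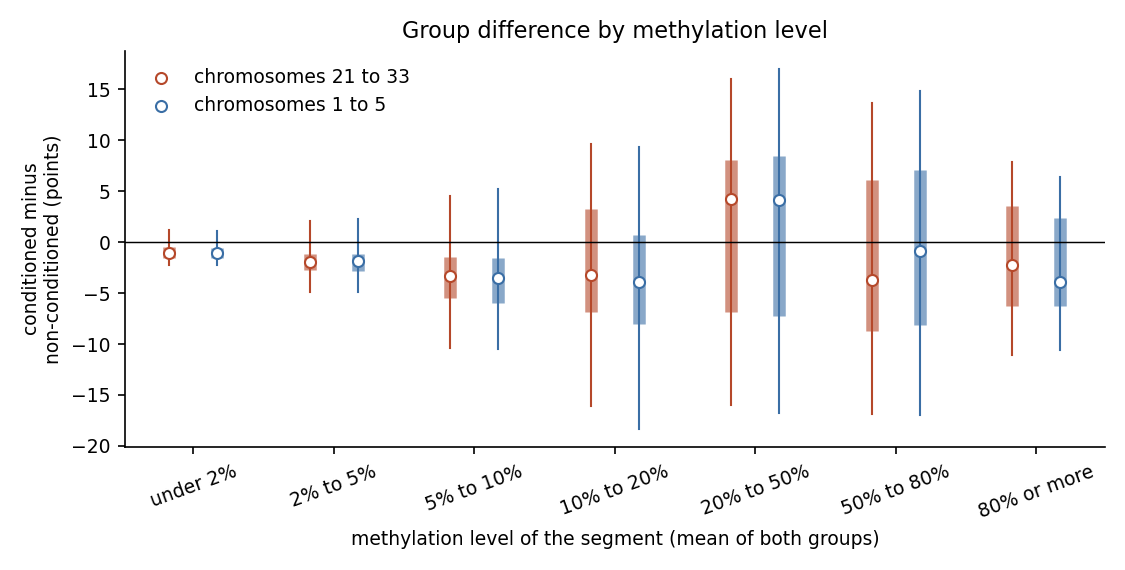
Conditioned minus non-conditioned methylation (percentage points) of segments by level, on chromosomes 21 to 33 and on chromosomes 1 to 5; the circle is the median, the thick bar the middle 50% of segments and the thin line the 5th to 95th percentile. Medians are below 0 in every class but 20% to 50%, where they are 4.23 and 4.17 points. The mean differences in that class are smaller, 1.27 and 1.02 points.

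Few intermediate segments had similar means in both groups. Of the 2006 segments of chromosomes 21 to 33 between 20% and 80%, 3.54% had means within 2 points of each other, and 76.3% differed by at least 5 points (804 higher and 727 lower in conditioned microglia). On chromosomes 1 to 5 the shares were 3.37% and 77.0%. Among the runs laid out on chromosomes 10 to 13, 32.9% of 3726 at these levels had means within 2 points, against 3.14% of the authors' 1116 segments there. At 20% to 50% the median differences were 0.728 points for runs and 5.02 points for segments there, and 0.362 and 3.73 points on chromosome 1. At 50% to 80% they were 0.130 and -0.525 points on chromosomes 10 to 13, and 0.457 and -2.70 points on chromosome 1. At lower levels of chromosomes 10 to 13, down to 2%, runs were also more often within 2 points than segments. At 10% to 20%, 44.3% of runs and 10.5% of segments lay within 2 points, with median differences of -0.865 and -3.86 points. At 5% to 10% the shares were 43.0% and 17.3%, with medians of -1.74 and -3.40 points, and at 2% to 5% the shares were 68.3% and 49.5%. Under 2% the shares were 90.9% and 89.0%. Above 2% the segments were thus less often alike in both groups than runs of the same level, and their differences and shares of gains and losses are not those of all CpGs.

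Values of single libraries exist for the authors' segments on the larger microchromosomes 10 to 13 (5882 segments) and on chromosome 1 (5234). There, conditioned libraries 1-2, 3 and 4 had means of 16.2%, 11.8% and 13.03% on chromosomes 10 to 13, against 14.7%, 15.3%, 15.6% and 15.5% in non-conditioned libraries 1 to 4. The conditioned libraries thus stood on both sides of the non-conditioned ones, and the difference of -1.56 points did not pass (exact two-sided permutation test, p = 0.257). It was -2.82 points without conditioned library 1-2 and -0.625 points without conditioned library 3. On chromosome 1 the means were 7.98% ± 1.74 (SD, n = 3) in conditioned and 10.2% ± 0.405 (SD, n = 4) in non-conditioned libraries (exact permutation p = 0.0571, where the smallest possible is 0.0286). The excess of chromosomes 10 to 13 over chromosome 1 was seen in 7 of 7 libraries. It was 6.28, 5.22 and 5.65 points in conditioned libraries 1-2, 3 and 4 and 4.99 to 5.25 points in the non-conditioned ones. The difference of 0.622 points between the groups did not pass (exact permutation p = 0.0571, Benjamini-Hochberg adjusted 0.0883 over 17 values) and was 0.339 points without conditioned library 1-2.

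At 20% to 50%, the level at which most segments of chromosomes 21 to 33 were higher in conditioned microglia, 1 conditioned library stood apart where libraries could be read. On chromosomes 10 to 13, conditioned library 1-2 had 41.6%, conditioned libraries 3 and 4 had 29.7% and 33.1%, and the non-conditioned libraries had 31.1% to 33.6% (657 segments, exact permutation p = 0.686, adjusted 0.833). At 5% to 10% the conditioned libraries had 7.78%, 3.96% and 4.80% and the non-conditioned ones 7.96% to 8.95% (exact permutation p = 0.0286, the smallest possible, adjusted 0.054). The same p was found there under 2%, at 2% to 5% and at 80% or more. The segments were found on these same libraries, so these p-values are not independent evidence. The share of either pattern carried by 1 library on chromosomes 21 to 33 was not tested.

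**Figure D4:**
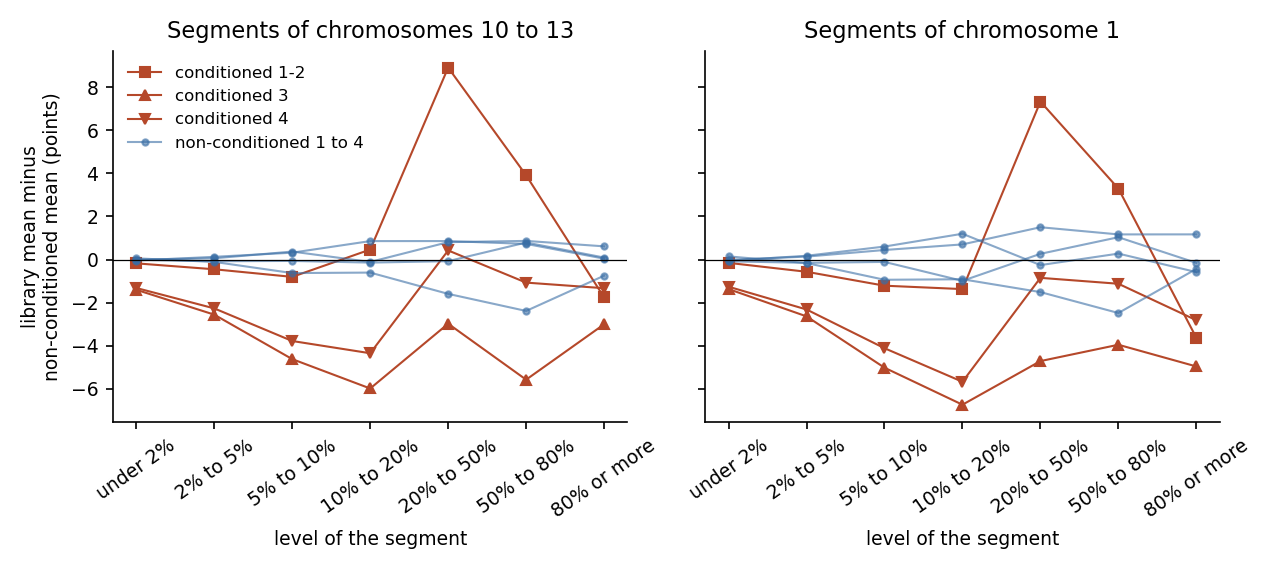
Mean over segments of each library minus the mean of the 4 non-conditioned libraries (percentage points), by level of the segment, on chromosomes 10 to 13 and on chromosome 1. Conditioned library 1-2 lies 8.91 points above the non-conditioned mean at 20% to 50% on chromosomes 10 to 13. At that level conditioned libraries 3 and 4 have offsets of -2.98 and 0.423 points. Conditioned libraries 3 and 4 lie below the non-conditioned mean at levels under 20%. Conditioned library 1-2 also lies below it at levels under 10%, by less.

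In the authors' deposited table, 38 segments of chromosomes 21 to 33 had a q-value under 0.05, which is 0.522% (interval 0.370% to 0.716%), against 0.683% for all segments of the deposited list and 0.715% on chromosomes 1 to 5. Of the 38, 32 were lower and 6 higher in conditioned microglia. Among all segments 0.621% were called lower and 0.0623% were called higher. Chromosome 26 had 8 called segments and chromosome 23 had 7, chromosomes 24, 25, 28 and 33 had 4 each, and chromosome 27 had 3. Chromosomes 21 and 22 had 2 each, and chromosomes 30 and 32 none. As shares of segments on the 9 with spans over 1 Mb, calls ran from 0.245% on chromosome 27 to 0.922% on chromosome 33. Weighted to the levels of chromosomes 1 to 5, the share called on chromosomes 21 to 33 was 0.641%. The share called depended on size in both sets. On chromosomes 21 to 33, 22 of the 450 segments with 20 or more positions were called (4.89%), and 3 of the 3678 with 10 positions (0.0816%). On chromosomes 1 to 5 the counts were 72 of 1447 (4.98%) and 7 of 9663 (0.0724%). By the deposited Mann-Whitney p, adjusted over all segments by Benjamini-Hochberg, 2801 of the 7282 were called, or 38.5%, against a background of 41.9%. How the deposited p-values and q-values treat libraries is not given in the sources used here, so they are the authors' calls and carry no replicate error here. On chromosome 27, 537778 to 537888, the deposited Mann-Whitney p was 4.49e-14. The exact permutation test over the 7 libraries can go no lower than 0.0286. The deposited Mann-Whitney test thus did not rest on 1 value per library.

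The 32 called losses were small changes at weakly methylated places. Their deposited means were 0.524% to 4.67% in conditioned and 2.79% to 11.9% in non-conditioned microglia, and 22 of the 32 differed by less than 5 points. The largest was on chromosome 23, 2010169 to 2010276, where 22 positions had 1.51% and 11.9% (q = 0.026). The segment 61 bp before it had 1.67% and 2.59%, and that 4.57 kb after it had 73.0% and 68.5%. On chromosome 24, 292100 to 292141, 17 positions had 1.58% and 10.2%. On chromosome 22, 342576 to 342636, 20 positions had 2.67% and 11.2%, and the next segment of the table, 21.8 kb on, was also called, with 2.28% and 7.25%. On chromosome 27, 606681 to 606741, 20 positions had 3.90% and 11.5%. The other 4 of the 8 largest losses, on chromosomes 26, 23, 33 and 21, had differences between -6.56 and -5.10 points. The smallest q-value on the small chromosomes, 6.15e-08, belonged to a segment of 49 positions on chromosome 23, 5205840 to 5206101, with 1.14% in conditioned and 4.05% in non-conditioned microglia.

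The 6 called gains were larger, between 12.2 and 57.1 points, and lay on chromosomes 23, 25, 26 and 28. The largest, at chromosome 25, 1349529 to 1349596, held 10 positions in 68 bp. Its deposited means were 67.4% in conditioned and 10.4% in non-conditioned microglia. Its neighbours did not share the gap: the segment 776 bp before it had 41.0% and 47.1%, and the one 1.31 kb after it had 33.6% and 32.3%. On chromosome 23, the gain at 5267952 to 5268018 (51.9% and 20.8%) lay between segments about 3 kb away that were also higher in conditioned microglia, by 8.65 and 6.35 points, with a deposited q of 1 each. On chromosome 26, the gain at 615347 to 615423 (38.7% and 8.55%) was followed 4.04 kb on by the segment with the largest loss of that chromosome, 619461 to 619735, with 29.2% and 61.0% (q = 1).

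Another pair of gains, each of 10 positions, had segments next to them on both sides that were lower in conditioned microglia. On chromosome 26, 1273451 to 1273663, the means were 20.7% in conditioned and 0.50% in non-conditioned microglia. The segment 57 bp before it had 1.71% and 2.92%, and that 121 bp after it had 1.67% and 5.12%. On chromosome 28, 3645968 to 3646026, the means were 24.1% and 0.625%. The segment 71 bp before it had 2.43% and 14.4%, and that 246 bp after it had 7.10% and 9.97%. In both places the gain thus stood above its neighbours in conditioned and below them in non-conditioned microglia. The gain at chromosome 23, 5778349 to 5778423 (18 positions, 23.0% and 10.8%) belongs to the last segment on that chromosome, 20.6 kb beyond the one before it.

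**Figure D5:**
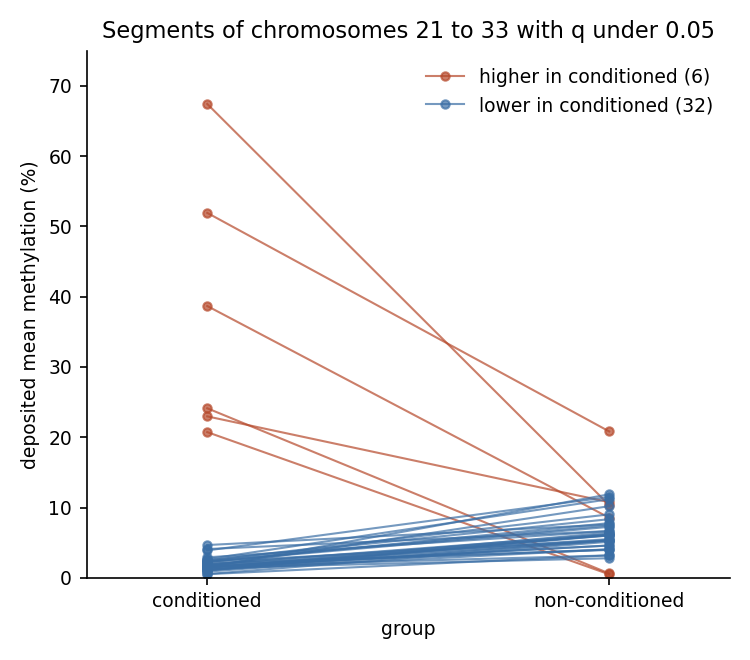
Deposited mean methylation (%) in conditioned and non-conditioned microglia of the 38 segments of chromosomes 21 to 33 with a deposited q-value under 0.05; a line joins the means of 1 segment. The 6 higher segments have conditioned means of 20.7% to 67.4%, and the 32 lower ones stay at or under 4.67% in conditioned and 11.9% in non-conditioned microglia.

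Differences of 10 points or more were common outside the called segments. Of the 7282 segments, 357 were higher by that much in conditioned microglia, or 4.90%, against 3.07% of the whole table, and 576 were lower, or 7.91%, against 5.53%. These shares were not matched for level. Within levels, differences of at least 5 points were not generally more frequent than on chromosomes 1 to 5. At 5% to 10% they made up 34.03% of segments, against 39.05%. At 10% to 20% it was 51.8% against 53.9%, and at 20% to 80% it was 76.3% against 77.0%. The share was higher on chromosomes 21 to 33 at 2% to 5% (5.47% against 5.28%) and at 80% or more (48.98% against 44.17%). Of the segments of chromosomes 21 to 33 past 10 points in either direction, 7 had a q-value under 0.05. That is 0.0961% of the 7282, against 0.0585% of the whole table (31 segments). On each of the 11 chromosomes, the largest gain lay between 19.2 and 57.1 points and the largest loss between -44.2 and -11.3 points. Of these, 2 gains and no loss had a q-value under 0.05. The largest loss was on chromosome 27, 4859677 to 4859826, where 10 positions had 13.8% in conditioned and 58.1% in non-conditioned microglia. On chromosome 28 the largest loss, 3086465 to 3086522 (30.1% and 70.1%), lay 4.75 kb before the largest gain, 3091273 to 3091382 (58.4% and 28.4%). On chromosome 33 the largest loss, 1593935 to 1593983, was listed at 0 in conditioned microglia over 12 positions, against 27.8% in non-conditioned microglia.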

How the data were processed

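Per the labels' protocols, libraries came from a Zymo-Seq RRBS kit. The submitters' processing notes name Trimmomatic, Bismark 0.22.3, Bowtie, HOMER and galGal5. The authors deposited percent methylation per position and library (652465 to 862443 positions per library, no depth) on chromosomes 1, 10 to 13 and part of 14. They also deposited a segment table with percent group means, p-values and q-values, per the file headers. Conditioned libraries 1-2, 3 and 4 had 724260, 862443 and 834475 positions, more than any non-conditioned library (652465 to 694825). The number of positions thus differed with the group, and its relation to the group differences was not tested. No source used here names the segmentation tool. Recomputing group means at the positions shared by the 7 libraries gave the deposited values within 0.01 points in 11570 of 11570 segments, with starts counted from 0. Coordinates here count from 1. The deposited difference, non-conditioned minus conditioned, was turned round.

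A segment's level is the mean of both group means. Groups of libraries were compared with exact two-sided permutation tests over 35 arrangements, adjusted over 17 values and tested on simulated data. P-values measure only the spread between these libraries, which may be technical. Members, level bins and comparisons were chosen with earlier results of these data known, and the fixed runs (10 positions within 300 bp) after seeing the data.

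Segments named are, by rule, the 8 largest called differences in each direction, the largest gain and loss per chromosome, the densest window, the 5 segments with most positions and the 3 highly methylated ones with most positions, with their neighbours. Python 3.11.15, numpy 2.4.6, pandas 2.3.3, scipy 1.17.1 and matplotlib 3.10.9 were used.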

Additional observations from a re-analysis of the deposited data

Results flagged for a closer look

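Among 17 sets of non-conditioned library values, 1 held a library far from the others, where chance gives about 0.85. On chromosomes 10 to 13, in segments at 50% to 80%, non-conditioned library 1 had 62.3%, below the other 3 at 65.4% to 65.5% (gap over range 0.957).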

How the results depend on the processing

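The ratio of segment densities, 5.09, was 2.74 per occupied 100-kb window and between 4.44 and 5.76 under the other alternatives. Under 10%, 10% to 80% and over 80%, the shares of segments were 69.8%, 24.4% and 5.80% with bounds of 20% and 70%, and 69.0%, 30.3% and 0.764% with at least 15 positions. The first and second shares were 59.1% and 38.5% weighted by positions, 53.6% and 43.4% by the non-conditioned mean, and 60.3% and 37.1% by the conditioned mean. The median difference was -2.11 points at levels of 2% to 98% and -1.69 points at levels of at least 10%, where 53.0% of segments were lower; with at least 15 positions 76.4% were lower. Called segments with at least 10 points of difference numbered 7 (0.0961%), 1 of them lower. Over the whole table they numbered 31 (0.0585%), 16 of them lower. By the deposited Mann-Whitney p adjusted over the table, 2801 were called (38.5%, against 41.9% of all segments). Leaving out each library gave differences of -2.82 to -0.625 points on chromosomes 10 to 13, -3.16 to -1.50 on chromosome 1, and 0.339 to 0.871 for the contrast between them. With 6 libraries the smallest exact permutation p is 0.0667 without a conditioned and 0.10 without a non-conditioned library, so none could pass. Without conditioned library 1-2 the p was 0.0667 on chromosomes 10 to 13 and on chromosome 1, where both remaining conditioned libraries lay below the 4 non-conditioned ones. With the replicate number as a block, libraries 3 and 4 alone gave -3.12, -3.49 and 0.374 points (exact sign-flip p = 0.50, the smallest for 2 pairs). Deviations of same-numbered libraries had correlations of 0.0127 and 0.0492, within the range of the other pairs, -0.0899 to 0.113. With only 2 such pairs, these values cannot tell whether the numbers pair the libraries. The minimum of 15 positions and leaving out chromosomes 30 and 32 were chosen after seeing the data. Densities over assembly lengths were not run, and no replicate could be left out on chromosomes 21 to 33, whose deposited values are group means of unknown depth.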
